A study of Arabidopsis thaliana with 21 samples.

Results

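Embryos of the Arabidopsis thaliana mutant asil2-2 were set against embryos of their wild type Ler, 3 libraries against 3, out of 21 libraries in the series. The members were chosen by genotype label and stage, without use of any measured value. All embryos were dissected by hand at the late heart stage, in which the cotyledons grow out, from plants kept at 22 °C with 16 h of light. The asil2-2 embryos carry a mutation in ASIL2 in the ecotype Landsberg erecta, and Ler is Landsberg erecta without it. Other groups used below are asil1-1 asil2-2, a double mutant labelled as mixed Columbia-0 and Landsberg erecta, with asil1-1 in Columbia-0 as its nearest partner, and asil2-1, another ASIL2 allele in Columbia-0, with Col-0 as its wild type. A further double mutant, asil1-1 asil2-1 in Columbia-0, is used only for levels. Each genotype has 3 biological replicates. The lesion of asil2-2, whether the mutant descends from 1 line, and how many plants or embryos each library pools have no record in the labels.

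ASIL1 and ASIL2 are trihelix proteins, plant transcription factors that bind DNA at GT-rich elements. Both are known in Arabidopsis as repressors that keep seed maturation genes low while the embryo is still forming. That programme is driven by LEC1, LEC2, FUS3 and ABI3 and ends in storage protein, oil and desiccation tolerance. Loss of both genes is known to bring maturation and greening forward, while the genes overlap in function.

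The 3 asil2-2 libraries held 6.16 to 8.19 M (1000000) counts and the 3 Ler libraries 4.99 to 5.41 M, so each asil2-2 library was deeper. Between 22220 and 22471 gene models had counts in asil2-2 and between 20666 and 21117 in Ler. Mitochondrial models took 5.65 ± 0.318% of counts in asil2-2 against 5.63 ± 0.112% in Ler, and plastid models 10.4 ± 1.17% in asil2-2 against 10.5 ± 1.13% in Ler (SD over 3 libraries). A pair of libraries of other genotypes stood apart, asil1-1 asil2-1 replicate 1, where the locus AT5G18610 took 45.7% of counts, and asil1-1 asil2-2 replicate 2, with 1.49 M counts. Neither entered the fit of asil2-2 against Ler, and calls that rest on the second are given with and without it.

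ASIL2 (AT3G14180, chromosome 3, 4706802 to 4709176, TAIR10.1), the targeted gene, was lower but not absent in asil2-2. Its level was 9.81, 9.65 and 9.90 CPM in the 3 asil2-2 libraries and 54.0, 51.5 and 51.3 CPM in the 3 Ler libraries, where CPM is counts per M counts after TMM scaling. Every asil2-2 library thus lay far below every Ler library, with almost no spread in either group. The log2 fold change was -2.41 ± 0.13 (SE, adjusted p = 5.55e-07, edgeR quasi-likelihood test with Benjamini-Hochberg adjustment). ASIL1 (AT1G54060), its paralog, had 49.2, 52.1 and 67.8 CPM in asil2-2 and 32.7, 41.8 and 39.4 CPM in Ler. These groups did not overlap, which in the higher direction held for 6.88% of all models tested. The difference of 0.57 ± 0.14 (log2, SE) did not pass the test (adjusted p = 0.269).

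Beside ASIL2, the genes that changed were a mixed set of regulators, enzymes and genes without a known role, with none of the listed genes of seed maturation among them. RAV2, a repressor of flowering, 2A6, an oxygenase-like gene, NEK3, a protein kinase, and VLN5, an actin-bundling villin, were among the rises. GAPB, a subunit of a plastid enzyme of the Calvin cycle in photosynthesis, was another rise. DDB1B, an adaptor of ubiquitin ligases, HDG2, a homeodomain factor of the epidermis, MYC3, a jasmonate response factor, and ESP, which steers the breakdown of glucosinolates, were among the falls. Of 16727 gene models tested, 27 passed at an adjusted p under 0.05 (0.161%), 16 higher (0.0957%) and 11 lower (0.0658%). In all, 1194 models, calls included, had an unadjusted p under 0.05, or 7.14% of those tested. The 3 asil2-2 libraries lay wholly above or wholly below the 3 Ler libraries in all 27 calls, as they did in 13.1% of all models tested, 6.88% higher and 6.18% lower.

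The number of calls depended on single libraries. It was 61 without asil2-2 replicate 1 and 16 without asil2-2 replicate 2, and 13, 14 and 17 without Ler replicates 1, 2 and 3. The calls kept with any library left out were 12, namely ASIL2, 2A6, AT2G34655, DDB1B, AGD9, GAPB, AT3G27473, UBP21, NEK3, PAB5, AT3G13370 and MYC3. The other 15 were lost without at least 1 library, with highest adjusted p values between 0.0672 for AT4G08760 and 0.292 for LOX3. RAV2, MAF1 and AT5G46730 were each lost in 5 of 6 such fits, as was AT5G03090. DESeq2 called 64 models, among them all 27. When other genotypes entered the same edgeR fit, 13 of 18269 models were called with all 21 libraries (0.0712%) and 48 of 18332 without the pair that stands apart (0.262%). With all 21, the 14 lost were UBP21 (adjusted p = 0.413), AT1G53440 (0.696), AT5G03090 (0.158), AT1G36920 (0.113), AT2G16760 and AT3G44190 (both 0.0933), AT3G13370 and MAF1 (both 0.0752), PAB5 (0.0643) and, each at 1, ESP, LOX3, AT3G14220, AT4G08760 and AT5G46730. With 19, ESP (0.0761) and LOX3 (0.17) were the losses.

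**Figure D1:**
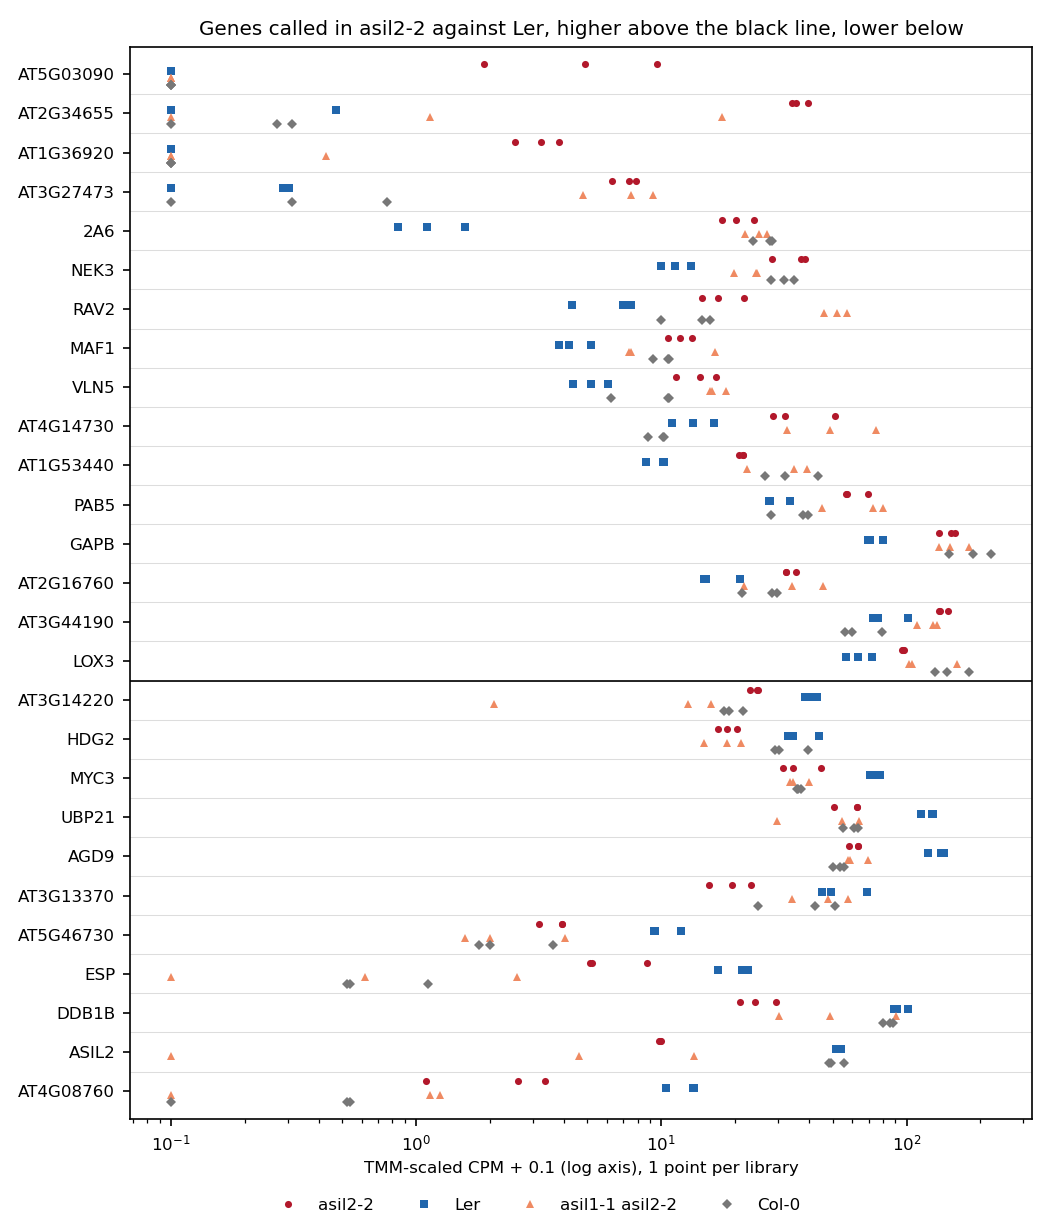
Level of each of the 27 called genes in each library of asil2-2, Ler, asil1-1 asil2-2 and Col-0, as TMM-scaled CPM plus 0.1 on a log axis, 1 point per library and no error bars. Genes above the black line were higher in asil2-2 than in Ler and those below it lower, and the asil2-2 and Ler points of a gene do not overlap in any of the 27 rows.

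Among the regulators, RAV2 (AT1G68840, chromosome 1, 25880155 to 25882222), which carries B3 and AP2 DNA-binding domains, was at 16.9, 14.5 and 21.6 CPM in asil2-2 and at 6.91, 4.24 and 7.44 CPM in Ler. Each asil2-2 library was above each Ler library, and the log2 fold change was 1.5 ± 0.24 (SE, adjusted p = 0.023). Its relatives RAV1 (0.34 ± 0.26, adjusted p = 0.867) and TEM1 (-0.34 ± 0.21, adjusted p = 0.809) did not pass, and the other 3 of 6 genes of the family were too low to test. MAF1 (AT1G77080), a MADS-box repressor of flowering also known as FLM, averaged 11.9 ± 1.39 CPM in asil2-2 and 4.29 ± 0.678 CPM in Ler (SD, n = 3 each; log2 1.47 ± 0.24, adjusted p = 0.023).

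HDG2 (AT1G05230, chromosome 1, 1512896 to 1518900), of the HD-ZIP IV family that shapes epidermis and trichomes, had 18.4, 20.3 and 17 CPM in asil2-2 and 34.5, 44.0 and 32.9 CPM in Ler. No library of the mutant reached the lowest one of Ler, and the log2 fold change was -0.99 ± 0.15 (SE, adjusted p = 0.0131). It was the call among 14 tested HD-ZIP IV genes, of which 9 had a positive fold change, such as the epidermal factors PDF2 (0.28 ± 0.10, adjusted p = 0.593) and HDG11 (0.33 ± 0.10, adjusted p = 0.473). MYC3 (AT5G46760) was at 34.4, 31.2 and 44.9 CPM in asil2-2 and at 78.1, 70.8 and 76.0 CPM in Ler (log2 -1.03 ± 0.13, SE, adjusted p = 0.0044). Its partners MYC2 (0.11 ± 0.09, adjusted p = 0.878) and MYC4 (-0.45 ± 0.34, adjusted p = 0.87) did not pass. The other call among 17 tested jasmonate genes was a rise of LOX3 (AT1G17420), a lipoxygenase at the start of jasmonate synthesis, with 96.5, 97.8 and 95.9 CPM in asil2-2 and 56.4, 72.5 and 63.6 CPM in Ler (log2 0.60 ± 0.11, adjusted p = 0.0425). Of the 17 genes 5 had positive and 12 negative fold changes, with a median of -0.098 against 0.0 over all models tested.

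The ubiquitin genes among the calls were both lower. DDB1B (AT4G21100, chromosome 4), a linker of CUL4 ubiquitin ligases, was at 29.2, 24.0 and 20.8 CPM in asil2-2 and at 88.9, 101.0 and 91.6 CPM in Ler. The highest mutant library had less than any Ler library, and also less than any of the other 18 libraries of the series, whose lowest value was 30.1 CPM (log2 -1.92 ± 0.13, adjusted p = 5.39e-06). None of the other 11 tested genes of the CUL4 ligases passed. The DDB1B transcript overlaps AT4G21105 on the opposite strand, and no label or file header states the strand of counting, so reads of the pair cannot be told apart. UBP21 (AT5G46740), a protease that removes ubiquitin, averaged 58.6 ± 7 CPM in asil2-2 and 123 ± 7.91 CPM in Ler (log2 -1.06 ± 0.11, adjusted p = 0.00034).

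The protein kinases were both higher. NEK3 (AT5G28290), of a family tied to microtubules and the cell cycle, was at 37.0, 38.6 and 28.1 CPM in asil2-2 and at 9.90, 13.1 and 11.3 CPM in Ler (log2 1.6 ± 0.17, adjusted p = 0.000618). It was the call among 6 tested NEK genes, with a median of 0.061. AT1G53440, annotated as a leucine-rich repeat receptor kinase, averaged 21.2 ± 0.474 CPM in asil2-2 and 9.64 ± 0.907 CPM in Ler (log2 1.14 ± 0.17, adjusted p = 0.0125). Among genes of the cytoskeleton and of membrane traffic, VLN5 (AT5G57320) averaged 14.1 ± 2.65 CPM in asil2-2 and 5.10 ± 0.852 CPM in Ler (log2 1.47 ± 0.24, adjusted p = 0.023). The other 6 villin and fimbrin genes were within 0.00 and 0.13 (log2) and did not pass. AGD9 (AT5G46750), a GTPase-activating protein of the vesicle coat switch ARF, was at 58.4, 63.5 and 63.3 CPM in asil2-2 and at 138, 122 and 142 CPM in Ler (log2 -1.12 ± 0.10, adjusted p = 0.000116), the call among 14 tested genes with that domain. AT3G13370, annotated as a formin-like protein, was at 23.2, 15.5 and 19.3 CPM in asil2-2 and at 49.1, 68.6 and 45 CPM in Ler (log2 -1.48 ± 0.18, adjusted p = 0.00223).

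Enzymes made up a further group. GAPB (AT1G42970) was at 136, 157 and 152 CPM in asil2-2 and at 69.3, 71.0 and 80.3 CPM in Ler, about 2-fold apart without overlap (log2 1.01 ± 0.10, adjusted p = 0.000327). It was the call among 18 tested Calvin cycle genes, of which 11 had positive fold changes (median 0.077), while RBCS1A, the most abundant of them and a small subunit of Rubisco, stood at 0.12 ± 0.09 (adjusted p = 0.846). AT3G44190, annotated as a FAD/NAD(P)-binding oxidoreductase, was at 136, 147 and 137 CPM in asil2-2 and at 72.8, 76.1 and 101 CPM in Ler (log2 0.75 ± 0.12, adjusted p = 0.0216). AT2G16760, annotated as a calcium-dependent phosphotriesterase, averaged 33.2 ± 1.85 CPM in asil2-2 and 16.9 ± 3.35 CPM in Ler (log2 0.98 ± 0.16, adjusted p = 0.0216). AT3G14220, annotated as a GDSL lipase, averaged 24.0 ± 0.982 CPM in asil2-2 and 40.4 ± 2.3 CPM in Ler (log2 -0.75 ± 0.12, adjusted p = 0.023). ESP (AT1G54040), the epithiospecifier protein, known to be active in Landsberg erecta and little expressed in Columbia-0, was at 8.62, 5.11 and 5.03 CPM in asil2-2 and at 22.4, 21.2 and 16.9 CPM in Ler (log2 -1.66 ± 0.23, adjusted p = 0.00832). In Col-0 it averaged 0.628 ± 0.34 CPM (SD, n = 3), so asil2-2 lay between both wild types.

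PAB5 (AT1G71770), a poly(A)-binding protein of reproductive tissue, averaged 61.0 ± 7.15 CPM in asil2-2 and 29.4 ± 3.36 CPM in Ler (log2 1.06 ± 0.13, adjusted p = 0.00221). AT4G14730 (chromosome 4, 8448366 to 8450174), of the Bax inhibitor-1 family of membrane proteins that restrain cell death, was at 51.0, 31.8 and 28.4 CPM in asil2-2 and at 11, 16.3 and 13.4 CPM in Ler (log2 1.46 ± 0.22, adjusted p = 0.0152), and none of the other 4 tested members of the family passed. AT4G08760, an uncharacterized gene, was at 2.51, 0.994 and 3.25 CPM in asil2-2 and at 13.4, 13.5 and 10.4 CPM in Ler (log2 -2.46 ± 0.34, adjusted p = 0.00673). Its Col-0 mean was 0.288 ± 0.249 CPM (SD, n = 3), so asil2-2 lay between both wild types, as for ESP. In all, 9 of the 27 called genes overlap another annotated gene, namely DDB1B, 2A6, AT3G27473, PAB5, AT1G53440, HDG2, AT4G14730, AT3G44190 and AT3G14220. Their counts share the limit given for DDB1B, except that AT3G27473 overlaps AT3G05245 on the same strand, where knowing the strand would not separate the reads.

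Several genes were near 0 in Ler and expressed in asil2-2. AT2G34655, an uncharacterized gene, was at 34.0, 35.2 and 39.4 CPM in asil2-2 and at 0, 0 and 0.372 CPM in Ler. This is 775 counts in asil2-2 against 2 in Ler, a depth-scaled ratio of 282 with a 95% counting interval of 77.8 to 2330 (adjusted p = 3.36e-07). The gene was also low in most other libraries but not in all, with 1.04, 0 and 17.62 CPM in asil1-1 asil2-2 and 26.3, 0.915 and 3.43 CPM in asil1-1 asil2-1. AT3G27473, annotated with a C1 domain, had 152 counts in asil2-2 and 2 in Ler, a ratio of 55.3 with an interval of 15.1 to 461 (adjusted p = 0.000327). AT5G03090, annotated as an Mto 1 responding down protein, had 118 counts in asil2-2 and 0 in Ler, at least 28.6-fold higher with a floor of 3 counts over the Ler group (adjusted p = 0.0313). Its level varied from 1.79 to 9.51 CPM among the asil2-2 libraries. AT1G36920, an uncharacterized gene, had 68 counts in asil2-2 and 0 in Ler, at least 16.5-fold higher by the same floor (adjusted p = 0.0124). These intervals and bounds cover counting error only. AT5G03090 and AT1G36920 reached at most 0.716 and 0.329 CPM in the other 18 libraries, so their rise was seen in the asil2-2 libraries and not in asil1-1 asil2-2.

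For a further set of calls, Ler was the group that stood apart from all other genotypes. 2A6 (AT1G03410, chromosome 1, 844436 to 847683), annotated as an oxygenase that depends on 2-oxoglutarate and iron, was at 20.1, 17.602 and 23.7 CPM in asil2-2 and at 0.747, 1.01 and 1.49 CPM in Ler (log2 4.22 ± 0.29, adjusted p = 5.63e-06). All 18 libraries other than Ler, whatever their genotype, held between 17.602 and 33.3 CPM. An annotated natural antisense transcript and another gene overlap it, with the limit on strand given above. Over the 27 calls, the 3 Ler libraries lay beyond all 18 others in 12, against 1.02% of all models tested, and the 3 asil2-2 libraries lay beyond all 18 others in 5, against 0.723% of all models. The 12 were 2A6, NEK3, RAV2, GAPB, VLN5, AT1G53440, AT2G16760, AGD9, UBP21, MYC3, ESP and AT3G14220. The 5 were DDB1B, AT3G44190, AT2G34655, AT1G36920 and AT5G03090. For MAF1, LOX3, AT5G46730 and AT4G08760, only asil1-1 asil2-1 replicate 1, which stands apart, kept Ler from lying beyond all others. That library held 4.9, 71.8, 24.2 and 13.0 CPM of these genes in turn. Ler held 3.73 to 5.05, 56.4 to 72.5, 9.28 to 11.9 and 10.4 to 13.5 CPM. Since a call requires asil2-2 and Ler to differ, the shares over all models are given as description. The mean of Col-0 was nearer to asil2-2 than to Ler in 16 of the 27 calls, against 49.8% of all models.

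The ecotype of the asil2-2 libraries was checked with genes on in 1 wild type and off in the other. Of 37 genes with a mean of at least 5 CPM in Col-0 and at most 0.25 CPM in Ler, the asil2-2 mean was at most 0.25 CPM for 32 and reached 5 CPM for 0, with 5 in between. For example, HSD2, a hydroxysteroid dehydrogenase, averaged 0.127 CPM in asil2-2, 0.062 CPM in Ler and 26.7 CPM in Col-0. Of 17 genes high in Ler and low in Col-0 by the same limits, asil2-2 reached 5 CPM in 12 and was in between in 5. AT1G24388 averaged 50.5 CPM in asil2-2, 47.7 CPM in Ler and 0.128 CPM in Col-0. In 0 genes of either set did the asil2-2 mean stand on the Col-0 side of these limits. The limits leave out genes whose lower wild type was above 0.25 CPM. One of those is 2A6, which averaged 20.5 CPM in asil2-2, 1.08 CPM in Ler and 26.4 CPM in Col-0, near the Col-0 level. ESP and AT4G08760, which lay between both wild types, are left out too.

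Neighbouring genes on chromosome 5 were lower together. AT5G46730, annotated as a glycine-rich protein, UBP21, AGD9 and MYC3 are consecutive among the tested models, from 18963977 to 18976590, and all 4 passed. AT5G46730, the lowest in level, averaged 3.58 ± 0.432 CPM in asil2-2 and 10.2 ± 1.49 CPM in Ler (log2 -1.49 ± 0.26, adjusted p = 0.0339). It was the least firm of the 4 calls, with an adjusted p of 0.058 when replicate number was a block and up to 0.263 with 1 library left out. UBP21, AGD9 and MYC3 averaged 58.6, 61.7 and 36.8 CPM in asil2-2 and 123, 134 and 75.0 CPM in Ler. In Col-0 the same 3 genes averaged 59.9, 53.0 and 36.3 CPM, close to asil2-2, so Ler was the higher group for each. The next tested model, AT5G46780, had a fold change of -1.55 ± 0.43 and did not pass (adjusted p = 0.353), and the abscisic acid receptor gene PYL1 after it had -0.39 ± 0.27 (adjusted p = 0.845). Just outside, AT5G46710 on one side stood at 0.11 ± 0.19 and the mitochondrial carrier gene BOU on the other at -0.02 ± 0.17.

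Around ASIL2 the picture was different. Among 192 tested models within 500 kb of ASIL2, 3 were called (1.56%, against 0.161% of all models), ASIL2 itself, AT3G13370 and AT3G14220. The share includes ASIL2, the mutated gene on which the window is centred. With 1 library left out, AT3G13370 was called in all 6 fits and AT3G14220 in 2. AT3G14220 lies 23652 bases from ASIL2 and 4 tested models away, with no call between. ESP lies near ASIL1 on chromosome 1, at 20170715 to 20173949 against 20180610 to 20182374. Over the chromosomes, 10 of 4315, 2 of 2521, 5 of 3317, 3 of 2512 and 7 of 3890 tested models were called on chromosomes 1 to 5, shares of 0.0793% to 0.232%.

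**Figure D2:**
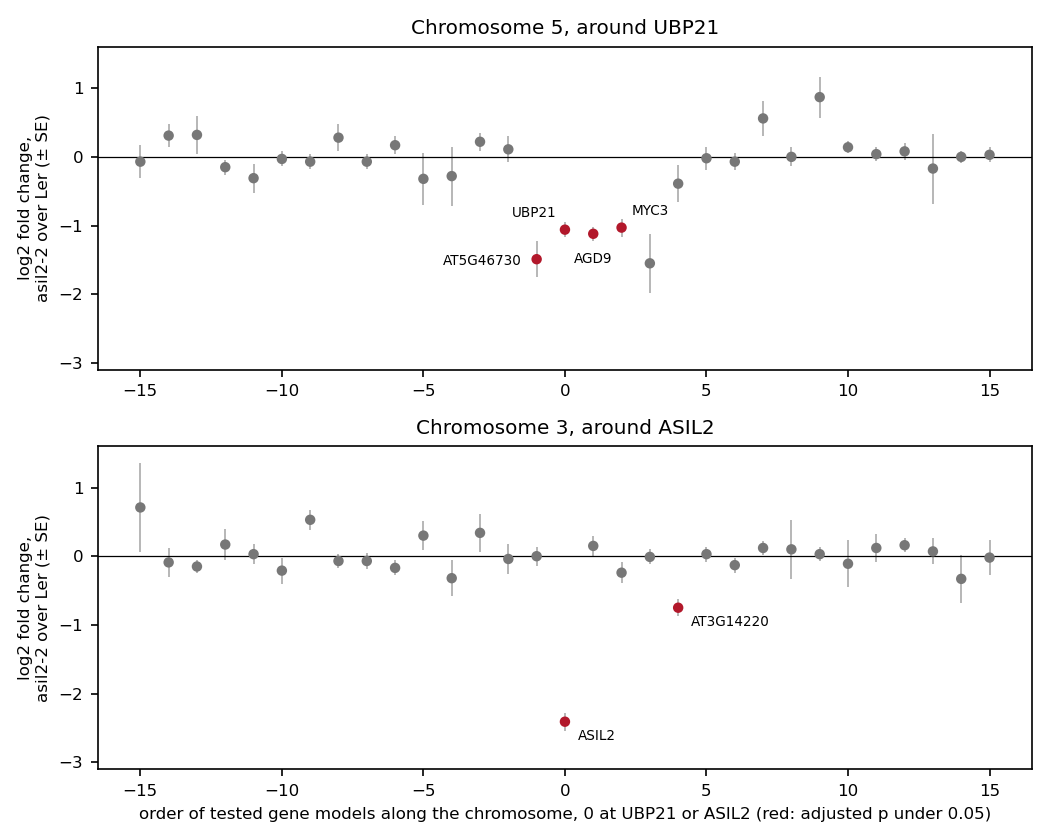
Log2 fold change of asil2-2 over Ler with its SE for 15 tested gene models on each side of UBP21 on chromosome 5 and of ASIL2 on chromosome 3, in chromosome order, with called models in red. The 4 called neighbours on chromosome 5 lie between -1.49 and -1.03, while ASIL2 at -2.41 has no called model next to it and AT3G14220 at -0.75 follows 4 models on.

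The asil2-2 allele was also sequenced in asil1-1 asil2-2, whose comparison with asil1-1 shares no library with asil2-2 against Ler. In that comparison the ecotype differs too, mixed against Columbia-0, so mutation and ecotype cannot be told apart there. Of 17022 models tested, 85 passed (0.499%), 51 higher (0.3%) and 34 lower (0.2%). Of the 27 genes, 22 could be tested, 16 had the same direction, 6 passed in the same direction and 0 in the opposite one. The 6 were ASIL2, HDG2, RAV2, AT4G14730, AT3G44190 and AT3G27473. Without asil1-1 asil2-2 replicate 2 there were 346 calls of 17374 (1.99%), 183 higher (1.05%) and 163 lower (0.938%), and the same 6 genes and DDB1B passed, with 15 of the 22 in the same direction.

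RAV2 had 52.1, 45.9 and 57.2 CPM in asil1-1 asil2-2 and averaged 11.8 ± 1.95 CPM in asil1-1 (SD, n = 3), a log2 fold change of 2.16 ± 0.18 (SE, adjusted p = 0.00135) and of 2.21 ± 0.16 without replicate 2 of the double mutant. All 3 double mutant libraries exceeded the asil2-2 libraries as well, whose highest value was 21.6 CPM. In asil1-1 asil2-1 RAV2 was at 15.8, 35.9 and 34.6 CPM, the lowest of these in the library that stands apart. AT4G14730 had 48.5, 74.8 and 32.4 CPM in asil1-1 asil2-2 and 7.79 ± 2.01 CPM in asil1-1 (log2 2.71 ± 0.33, adjusted p = 0.00813; 2.39 ± 0.24 without replicate 2). AT3G44190 had 110, 128 and 133 CPM in asil1-1 asil2-2 and 60.6 ± 9.10 CPM in asil1-1 (log2 1.04 ± 0.15, adjusted p = 0.017; 1.01 ± 0.14 without replicate 2). For comparison, AT4G14730 averaged 13.6 ± 2.67 CPM in Ler and 9.67 ± 0.838 CPM in Col-0, and AT3G44190 averaged 83.2 ± 15.2 CPM in Ler and 65.1 ± 12.6 CPM in Col-0, so every asil2-2 and asil1-1 asil2-2 library lay above every library of both wild types for both genes.

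HDG2 was lower in the double mutant too, with 14.8, 18.4 and 21.1 CPM in asil1-1 asil2-2 and 38.8 ± 1.46 CPM in asil1-1 (log2 -1.09 ± 0.19, adjusted p = 0.0425, and -1.1 ± 0.17 without replicate 2). The ASIL2 level was 4.52, 0 and 13.5 CPM in asil1-1 asil2-2 and 57.4 ± 2.94 CPM in asil1-1 (log2 -2.94 ± 0.49, adjusted p = 0.0376, and -2.65 ± 0.30 without replicate 2). AT3G27473 had 4.69, 9.19 and 7.41 CPM in asil1-1 asil2-2 and 0.0414 ± 0.0717 CPM in asil1-1 (adjusted p = 0.00894, and 0.00111 without replicate 2). DDB1B stood at -0.60 ± 0.31 (adjusted p = 0.517) with all 3 double mutant libraries and at -1.04 ± 0.18 (adjusted p = 0.0104) without replicate 2.

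The other 15 tested genes did not pass with or without that library. Among them were 10 of the genes for which Ler was the group apart, while RAV2, also of that set, did pass. 2A6 (-0.22 ± 0.17, adjusted p = 0.673), NEK3 (-0.12 ± 0.22, 0.854), GAPB (-0.31 ± 0.13, 0.444), UBP21 (-0.15 ± 0.22, 0.824), AGD9 (-0.03 ± 0.13, 0.939) and MYC3 (0.02 ± 0.15, 0.977) had log2 fold changes between -0.31 and 0.02. Without replicate 2, UBP21 was at 0.06 ± 0.13 and MYC3 at -0.06 ± 0.13, each with its sign changed. The rest of the 10 were AT1G53440, AT2G16760, VLN5 and AT3G14220, between -0.89 ± 0.40 for AT3G14220 and 0.57 ± 0.24 for VLN5. Of the 5 outside the set where Ler lay apart, PAB5 was at 0.75 ± 0.22 (adjusted p = 0.236), MAF1 at 0.21 ± 0.37 (0.855) and LOX3 at 0.04 ± 0.17 (0.953). AT3G13370 at 0.33 ± 0.21 (0.603) and AT5G46730 at 0.55 ± 0.60 (0.755) were opposite in sign to asil2-2 against Ler. MAF1, LOX3 and AT5G46730 were outside the set only through asil1-1 asil2-1 replicate 1. Whether the fold changes of these genes differ between the comparisons was not tested.

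**Figure D3:**
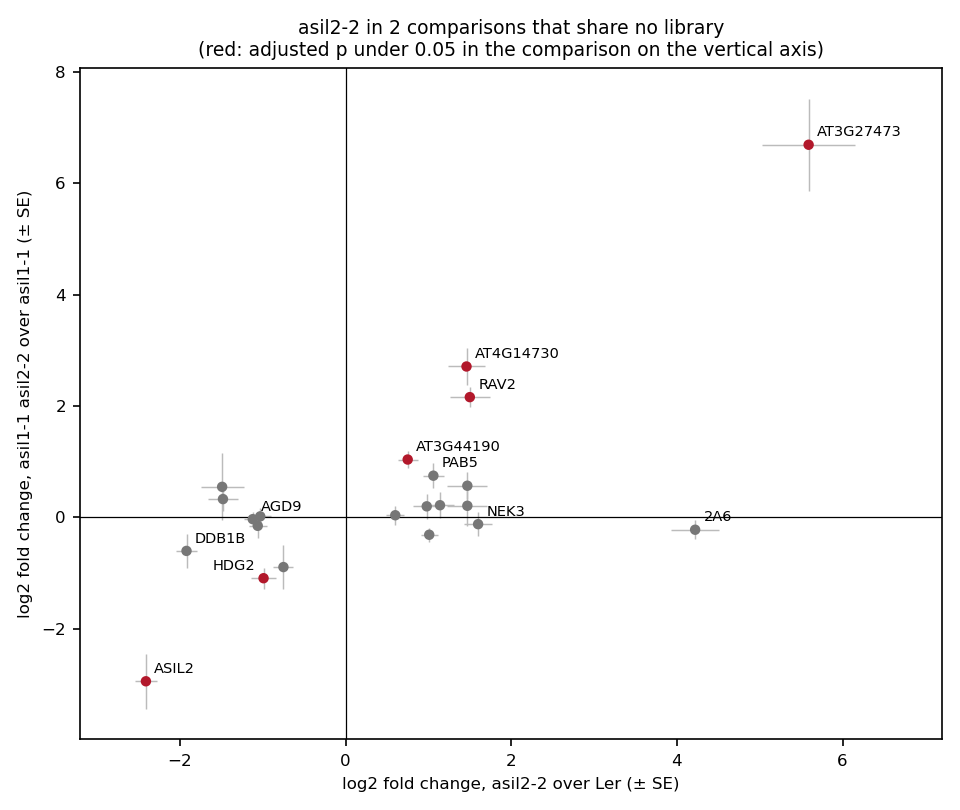
Log2 fold change of asil2-2 over Ler (horizontal) and of asil1-1 asil2-2 over asil1-1 (vertical), with SE, for the 22 of 27 called genes tested in both, with genes that passed in the vertical comparison in red. ASIL2 and HDG2 lie low on both axes, RAV2, AT4G14730, AT3G44190 and AT3G27473 high on both, and 2A6, NEK3 and AGD9 lie along the horizontal line at 0.

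Trihelix factors are known to bind GT-boxes, of which GTGATT is one form. The 250 bases before the annotated start were therefore read for 4 of the genes that passed in both comparisons, from the TAIR10.1 genome of RefSeq. ASIL2 itself and AT3G27473, whose upstream bases lie in other annotated genes, were left out. Each runs 5′ to 3′ on the strand of its gene, with GTGATT or its reverse complement AATCAC in capitals.
HDG2, chromosome 1, 1518901 to 1519150, minus strand: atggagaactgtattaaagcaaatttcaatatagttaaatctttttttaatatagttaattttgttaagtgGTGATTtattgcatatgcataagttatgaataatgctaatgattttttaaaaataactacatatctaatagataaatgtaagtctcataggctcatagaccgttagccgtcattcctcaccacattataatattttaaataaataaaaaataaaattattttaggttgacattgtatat
AT3G44190, chromosome 3, 15903629 to 15903878, minus strand: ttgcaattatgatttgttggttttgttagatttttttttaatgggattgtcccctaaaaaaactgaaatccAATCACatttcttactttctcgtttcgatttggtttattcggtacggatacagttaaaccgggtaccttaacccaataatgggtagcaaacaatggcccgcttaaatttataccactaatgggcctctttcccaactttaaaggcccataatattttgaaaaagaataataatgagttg
RAV2, chromosome 1, 25879905 to 25880154, plus strand: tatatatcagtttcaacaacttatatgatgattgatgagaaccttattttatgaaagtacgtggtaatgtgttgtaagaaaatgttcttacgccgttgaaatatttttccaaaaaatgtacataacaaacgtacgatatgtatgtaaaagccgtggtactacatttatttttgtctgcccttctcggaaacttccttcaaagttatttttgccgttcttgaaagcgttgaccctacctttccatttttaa
AT4G14730, chromosome 4, 8448116 to 8448365, plus strand: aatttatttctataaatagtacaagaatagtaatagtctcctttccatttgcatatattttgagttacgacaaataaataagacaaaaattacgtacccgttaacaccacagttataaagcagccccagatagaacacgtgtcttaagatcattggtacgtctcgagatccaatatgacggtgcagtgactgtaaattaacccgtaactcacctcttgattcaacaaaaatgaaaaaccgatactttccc
The letters stand 179 bases before the start in HDG2, which was lower in asil2-2, and 179 bases before it, on the other strand, in AT3G44190, which was higher. The windows of RAV2 and AT4G14730 hold no match. Over all tested models with a window, 2632 of 16555 hold a match (15.9%), against 3 of 16 higher genes (18.8%) and 3 of 11 lower genes (27.3%). The 6 were AT2G34655, AT3G27473 and AT3G44190 among the higher genes and AGD9, AT4G08760 and HDG2 among the lower ones. A match describes letters in the window and is not evidence of binding. The windows are those of the reference genome, and the sequence of the Landsberg erecta plants compared was not read.

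The other allele of ASIL2, asil2-1 in Columbia-0, gave few changes. Against Col-0, 2 of 16802 models passed (0.0119%), G6PD3 and UBC11, both lower, and of the 27 genes called in asil2-2, 21 could be tested, 13 had the same direction and 0 passed. ASIL2 itself averaged 41.9 ± 5.4 CPM in asil2-1 against 50.9 ± 4.02 CPM in Col-0 (SD, n = 3 per group; log2 -0.29 ± 0.13, adjusted p = 0.826). AT4G14730 was at 23.3, 19.7 and 16.5 CPM in asil2-1 and averaged 9.67 ± 0.838 CPM in Col-0, but did not pass (log2 1.02 ± 0.19, adjusted p = 0.356). HDG2 was at 23.2, 24.8 and 21 CPM in asil2-1 and averaged 32.9 ± 5.74 CPM in Col-0 (log2 -0.53 ± 0.15, adjusted p = 0.769). RAV2 was at 17.44, 19.7 and 22.2 CPM in asil2-1 and averaged 13.4 ± 3.11 CPM in Col-0 (log2 0.54 ± 0.19, adjusted p = 0.799).

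The difference between the alleles was tested directly, as asil2-2 against Ler minus asil2-1 against Col-0 in 1 model of 12 libraries. Since asil2-2 is in Landsberg erecta and asil2-1 in Columbia-0, allele and ecotype cannot be told apart in this test. It passed for 10 of 17546 models (0.057%), 5 with a positive difference (0.0285%) and 5 with a negative one (0.0285%), 8 of which are among the 26 of 27 called genes that could be tested. They were ASIL2, 2A6, DDB1B, AGD9, UBP21, MYC3, NEK3 and GAPB. For HDG2 (-0.47 ± 0.21, adjusted p = 0.91), AT4G14730 (0.43 ± 0.32, 0.948), AT3G44190 (0.73 ± 0.20, 0.689) and RAV2 (0.96 ± 0.32, 0.903), a difference between the alleles was not detectable with these libraries.

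The lists of seed maturation and storage genes and of light harvesting genes showed no call, while the Calvin cycle list held GAPB, given above. Of 16 tested activators of seed maturation, 7 had positive and 9 negative fold changes, with a median of -0.013, and none passed. LEC1 was at 142, 155 and 109 CPM in asil2-2 and at 131, 147 and 109 CPM in Ler, ABI3 at 276, 296 and 298 CPM in asil2-2 and at 315, 265 and 276 CPM in Ler, and FUS3 at 55.3, 56.6 and 38.3 CPM in asil2-2 and at 54.0, 54.9 and 51.9 CPM in Ler. The groups overlapped for all 3. Of 14 tested repressors of maturation, 7 had positive and 7 negative fold changes (median 0.003), without a call. Storage proteins were barely on at this stage, since 2 of 10 passed the filter on low counts, the cruciferin CRA1 with 5.98, 2.98 and 6.82 CPM in asil2-2 and 4.30, 4.44 and 2.60 CPM in Ler (adjusted p = 0.87) and the 2S albumin SESA1 with 1.56, 1.85 and 4.06 CPM in asil2-2 and 3.17, 2.83 and 4.09 CPM in Ler (adjusted p = 0.903). Of 13 oil genes 11 could be tested, and none passed (median 0.027). FAD2, a desaturase of seed oil and the most abundant, was at 613, 604 and 525 CPM in asil2-2 and at 559, 573 and 534 CPM in Ler. FAE1, an elongase of seed oil, was lower in level, at 4.91, 8.23 and 6 CPM in asil2-2 and at 11.8, 12.9 and 8.18 CPM in Ler (log2 -0.78 ± 0.26, unadjusted p = 0.0105, adjusted p = 0.535). CLO1, at 0.202 to 1.95 CPM over the 6 libraries, was too low to test. HSD1 was not listed for any library of the series, so it could not be tested and its level is not known.

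Of 13 genes of late embryogenesis abundant proteins, which protect drying seeds, 2 were high enough to test. ECP63 was at 7.66, 4.26 and 7.46 CPM in asil2-2 and at 2.24, 1.41 and 4.09 CPM in Ler (log2 1.31 ± 0.40, adjusted p = 0.425). RAB28 was at 3.71, 4.26 and 5.36 CPM in asil2-2 and at 2.99, 1.41 and 1.67 CPM in Ler (log2 1.11 ± 0.39, adjusted p = 0.545). Both were without overlap between the groups, as were 6.88% of all models tested in the higher direction, and neither passed. Light harvesting and photosystem genes had positive fold changes in 28 of 34 tested (median 0.119), again without a call, and LHCB2.1 had the largest fold change among them at 0.34 ± 0.13 (adjusted p = 0.598).

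Heat shock genes, chaperones and their regulators, had negative fold changes in 10 of 11 tested, with a median of -0.378. Of these, 5 had an unadjusted p under 0.05, against 7.14% of all models tested, and none passed after adjustment. HSP90.1 was at 80.1, 78.9 and 62.0 CPM in asil2-2 and at 95.6, 97.7 and 160 CPM in Ler (log2 -0.67 ± 0.17, adjusted p = 0.297), and HSP70 at 111, 84.3 and 92.3 CPM in asil2-2 and at 132, 130 and 190 CPM in Ler (log2 -0.65 ± 0.15, adjusted p = 0.186). Ler replicate 3 was the highest of these libraries for both. Both genes also varied widely between replicates of other genotypes. HSP90.1 was at 125, 96.7 and 264 CPM in Col-0 and at 225, 76.1 and 60.1 CPM in asil2-1. HSP70 was at 151, 94.8 and 275 CPM in Col-0 and at 220, 84.6 and 76.2 CPM in asil2-1. The summed level of all 18 listed genes was 611 ± 38.2 CPM in asil2-2 and 819 ± 136 CPM in Ler (SD, n = 3 each), with an exact two-sided permutation p of 0.1, the smallest that 3 against 3 allows.

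Markers of other seed tissues were present in both groups, and their summed levels overlapped. In bulk libraries fewer cells of a type and less RNA per cell cannot be told apart. The 16 seed coat markers summed to 708 to 889 CPM in asil2-2 and to 739 to 921 CPM in Ler (exact two-sided permutation p = 0.5, n = 3 each). Most of this sum came from SBT1.7, with 498 to 570 CPM in asil2-2 and 496 to 605 CPM in Ler. The 11 endosperm markers summed to 277 to 344 CPM in asil2-2 and to 230 to 340 CPM in Ler (exact p = 0.9, n = 3 each). SUC5 held most of this sum, with 211 to 266 CPM in asil2-2 and 168 to 254 CPM in Ler, so other markers weigh little in it. Of 5 tested endosperm genes 2 had positive and 3 negative fold changes, and none passed. Among them were FIS2 at 0.88 ± 0.30 (adjusted p = 0.545) and ALE1 at -0.29 ± 0.13 (adjusted p = 0.683). The 9 embryo markers summed to 240 to 328 CPM in asil2-2 and to 252 to 299 CPM in Ler (exact p = 0.7, n = 3 each), and no marker of the 3 lists was at 0 in all 6 libraries. Of 15 tested seed coat genes 10 had negative fold changes (median -0.162), such as PER36, the peroxidase AT3G50990 of mucilage cells, at -0.90 ± 0.31 (adjusted p = 0.54), and none passed. The part of these tissues in the changes above was not tested.

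**Figure D4:**
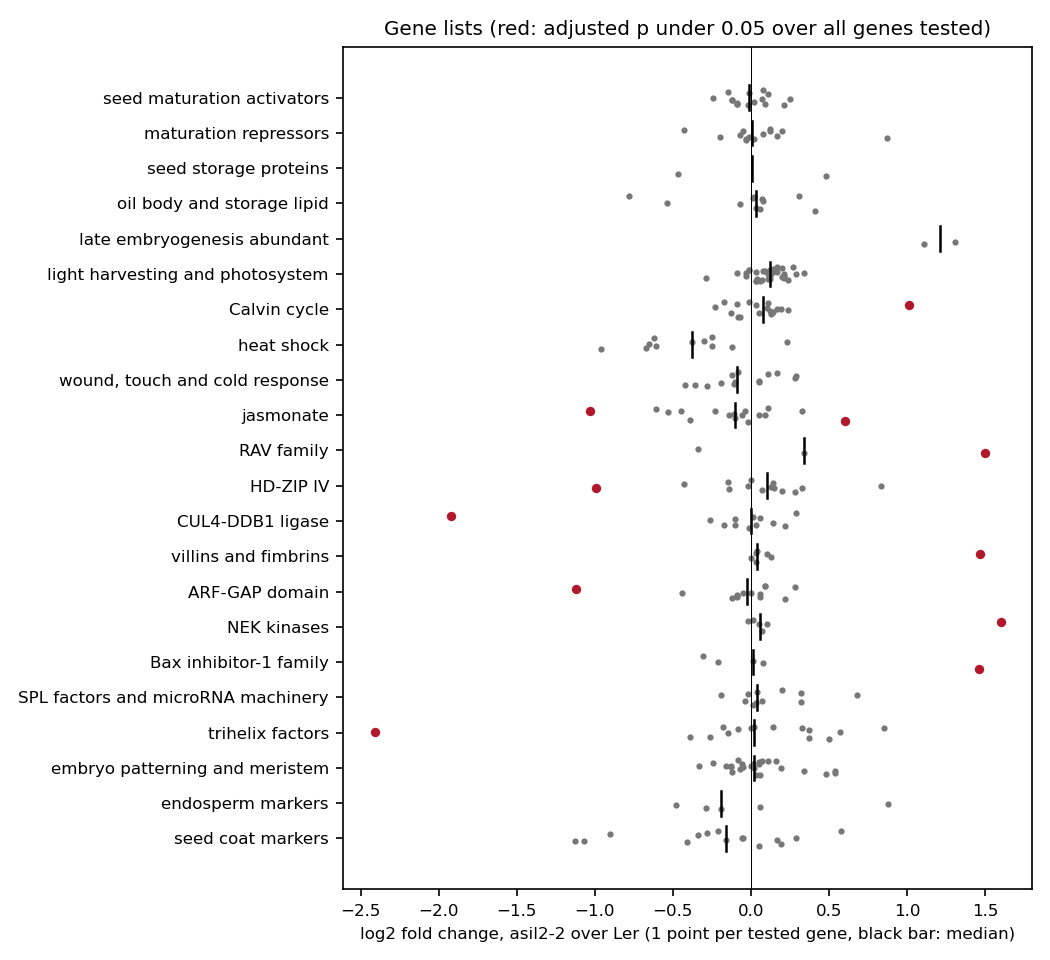
Log2 fold change of asil2-2 over Ler for each tested gene of 22 lists, 1 point per gene, with the list median as a black bar and called genes in red. Maturation activators and repressors centre on 0 without a red point, and heat shock genes centre on -0.378. Each red point lies at the edge of its list, which is description only, since the lists were chosen with earlier results known.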

How the data were processed

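RNA of 21 libraries was measured, and asil2-2 and Ler, 3 libraries each, form the comparison. The authors deposited read counts per gene model, 1 table per library that lists only models with reads, and unlisted models were set to 0. Per the submitters' processing notes, Bowtie 0.12.7, edgeR 3.0.8 and TAIR10 were used. Per the labels' protocols, libraries were made from 70 to 90 ng of RNA with a Nugen Ovation kit. The labels do not give the counting rule, the strand or the treatment of reads with several matches, and overlapping or near-identical genes can share reads. Of 26496 models, 26100 matched the RefSeq annotation of TAIR10.1, which gives names and coordinates.

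The 6 libraries were fitted alone in edgeR 4.0.16 (R 4.3.3) with TMM scaling and its filter on low counts (minimum count 10, minimum total 15), so that the libraries of other genotypes that stand apart do not set the spread. The quasi-likelihood test was used, with Benjamini-Hochberg adjustment over all 16727 models, and called means an adjusted p under 0.05. The other comparisons were fitted in the same way. CPM levels use TMM scaling over all 21 libraries. Standard errors are approximate, obtained by dividing a fold change by the root of its F statistic. Two-sided exact permutation tests were used for summed levels. Ratios against near-empty groups are count ratios with an exact 95% interval or a floor of 3 counts per group of 3 libraries.

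The genes named are all 27 calls, ASIL1 and ASIL2, genes at 3 counts or fewer in 1 group, the leading members of 22 lists (334 loci) and the leading allele differences. Further list members were named as the known drivers of their pathway. The comparison, lists and rules were chosen with earlier results of these data known. Alternatives were RLE scaling, no filter, DESeq2 1.42.0, a replicate block, fits with 21 and 19 libraries and each library left out. Thinning asil2-2 to the depth of Ler was added after seeing the data. The scripts were tested on simulated data. Tables and figures used Python 3.11.15, pandas 2.3.3, numpy 2.4.6, scipy 1.17.1 and matplotlib 3.10.9.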

Additional observations from a re-analysis of the deposited data

Results flagged for a closer look

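For 10 genes the fold change of asil2-2 over Ler differed from that of asil2-1 over Col-0. The difference itself was tested (edgeR quasi-likelihood, 12 libraries). Values are the log2 fold change of asil2-2 over Ler minus that of asil2-1 over Col-0, with SE and adjusted p. Allele and ecotype cannot be told apart in them. For 8 genes the change lay in asil2-2 against Ler. For 2A6, NEK3, GAPB, AGD9, UBP21 and MYC3 among them, Ler was the group that lay beyond all libraries of other genotypes. 2A6 differed by 4.09 ± 0.31 (6.17e-06), NEK3 by 1.73 ± 0.26 (0.00902) and GAPB by 1.08 ± 0.18 (0.0283). ASIL2 differed by -2.12 ± 0.17 (7.75e-06), DDB1B by -1.74 ± 0.16 (4.06e-05) and AGD9 by -1.25 ± 0.14 (0.000269). UBP21 differed by -1.16 ± 0.14 (0.00102) and MYC3 by -1.11 ± 0.18 (0.0283). Of these, 2A6 averaged 20.5 CPM in asil2-2, 1.08 CPM in Ler, 28.9 CPM in asil2-1 and 26.4 CPM in Col-0.

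For the other 2 genes the change lay in asil2-1. UBC11, a ubiquitin-conjugating enzyme, differed by 1.4 ± 0.15 (0.000294), with 61.4 ± 8.96 CPM in asil2-2, 58.8 ± 2.73 CPM in Ler, 23.2 ± 0.676 CPM in asil2-1 against 58.0 ± 0.97 CPM in Col-0 (SD, n = 3). G6PD3, a plastid glucose-6-phosphate dehydrogenase, differed by 1.84 ± 0.25 (0.00293), with 25 ± 3.19 CPM in asil2-2, 27.9 ± 3.79 CPM in Ler, 6.53 ± 1.56 CPM in asil2-1 against 25.7 ± 3.05 CPM in Col-0 (SD, n = 3). The difference of GAPB did not pass without Col-0 replicate 1 or 2, Ler replicate 1 or 2, asil2-1 replicate 2 or 3, or asil2-2 replicate 2 or 3, with adjusted p up to 0.124. That of MYC3 was lost without any Col-0 or Ler library, asil2-1 replicate 2, or asil2-2 replicate 1 or 2, with adjusted p up to 0.138. That of NEK3 was lost without Ler replicate 3 (0.0502) or asil2-2 replicate 2 (0.0555).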

How the results depend on the processing

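No fold change of asil2-2 over Ler of the 27 called genes changed sign under the alternatives run. In asil1-1 asil2-2 against asil1-1, 3 of the 22 values changed sign without asil1-1 asil2-2 replicate 2, to 0.06 for UBP21, -0.06 for MYC3 and -0.17 for MAF1, none past the threshold. The 27 calls of asil2-2 against Ler became 64 with DESeq2, 147 without the filter on low counts, of which 13 lay on models the filter removes, 48 with 19 libraries in the fit and 13 with all 21. RLE scaling gave 27. With asil2-2 thinned to the depth of Ler there were 26, of which 25 were among the 27, with MAF1 lost (adjusted p = 0.0637) and AT5G03090 too low to test. All 13 calls of the 21-library fit were among the 27. Leaving out 1 library gave 13 to 61 calls for asil2-2 against Ler. The cause of these shifts was not tested. The allele difference, with 10 calls, gave 21 with DESeq2, 24 without the filter and 7 to 12 with 1 library left out. For asil1-1 asil2-2 against asil1-1, 85 calls became 346 without asil1-1 asil2-2 replicate 2. The ecotype check held 37 and 17 genes. It held 64 and 20 at limits of 2 and 0.1 CPM, and 23 and 4 at 10 and 0.25 CPM, with 0 genes on the Col-0 side each time. 2A6, ESP and AT4G08760, given above, met none of these limits. For libraries with the same number, deviations from the group means had r of 0.0158, 0.00969 and 0.17 over genes, against -0.159 to 0.151 for unlike numbers. So few values cannot settle whether the number marks a shared batch. With the number as a replicate block there were 33 calls, 26 of them among the 27, without AT5G46730 (adjusted p = 0.058), and the allele difference had 14. Depth limits genes near the filter, such as the storage proteins, where a change was not detectable.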
